A study of Mus musculus with 16 samples.

Results

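The Akr1c genes encode aldo-keto reductases, most of which act as hydroxysteroid dehydrogenases. The family was taken as 8 mouse genes, Akr1c6, Akr1c12, Akr1c13, Akr1c14, Akr1c18, Akr1c19, Akr1c20 and Akr1c21, out of 22180 genes measured in kidney cortex. Each gene was read from the probe set annotated to it alone, which 7 of the 8 have. Akr1c13 has none: its probe set is annotated to Akr1c12 as well, so Akr1c13 was not measured by itself. Akr1c18 was chosen by its measured log2 levels, high in Pbrm1 mutants alone, so its values are described here and carry no test.

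These enzymes use NADPH or NADH to reduce a ketone of a steroid to an alcohol, or to run the reverse reaction, and so set how much active hormone a cell sees. Akr1c18 is the 20-alpha-hydroxysteroid dehydrogenase that inactivates progesterone, best known from the ovary, where its rise ends pregnancy. Akr1c14 is a 3-alpha-hydroxysteroid dehydrogenase that acts on dihydrotestosterone and other reduced steroids. Akr1c21 is a 3(17)-alpha-hydroxysteroid dehydrogenase that is abundant in mouse kidney. Akr1c6 is a liver 17-beta-hydroxysteroid dehydrogenase, and Akr1c12, Akr1c13 and Akr1c19 also oxidise or reduce non-steroid alcohols and ketones.

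RNA came from the kidney cortex of mice aged 3 months on a normal diet, with 4 arrays for each of 4 genotypes. Wild types were C57BL/6. Vhl mutants (Vhl F/F;Ksp), Pbrm1 mutants (Pbrm1 F/F;Ksp) and double mutants (Vhl F/F;Pbrm1 F/F;Ksp) were of a mixed C57BL/6, BALB/c and 129 background and all carried Ksp-Cre, whose promoter, that of the cadherin gene Cdh16, is active in tubule epithelium. A comparison with wild type is therefore also one of strain and of Cre, and these cannot be told apart. The comparisons among the mutant groups share background and Cre by label. The study looked for early expression changes that might matter for clear cell renal carcinoma. In bulk cortex, fewer cells of a type and less RNA per cell cannot be told apart.

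Values are log2 expression, so a difference of 1 is a doubling, and array medians lay between 5.18 and 5.27. A level below 3.72, the highest lower quartile of any array, is treated as background. Probe sets for the targeted genes read 6.08 to 6.55 for Vhl and 8.02 to 8.33 for Pbrm1 over the 16 arrays, with overlapping groups. Where these probe sets lie relative to the floxed exons is not given in the sources used here, so they do not check the labels. The 10 proximal tubule markers were high in every array (10.38 to 12.98), and in the arrays of each group the 3 measured Y-linked genes were above background while Xist was below it (2.92 to 3.33). The descriptions give each group 2 numbers that may mark 2 animals: replicates 1 and 2 share one and 3 and 4 the other, but in double mutants replicates 1 to 3 share one. Each description also holds a letter, L or R, which may mark a side. A shared number has an L and an R array, but double mutant replicates 1 to 3 are L, R and R. Double mutant replicates 2 and 3 thus carry the same number and letter. By the spread of its differences, double mutant replicate 3 was nearest to replicate 4 (SD of log2 differences 0.228, against 0.273 and 0.269 to replicates 1 and 2).

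In the RefSeq annotation of GRCm38.p6 the 8 genes form one cluster on chromosome 13, in the order Akr1c14, Akr1c18, Akr1c13, Akr1c19, Akr1c12, Akr1c6, Akr1c20 and Akr1c21, with no other protein-coding gene between them. The promoters of Akr1c18, Akr1c14 and Akr1c21 are shown because these genes gave clear signal and lie in one cluster, yet moved differently. By group mean, Akr1c18 and Akr1c21 were highest in Pbrm1 mutants and Akr1c14 in double mutants, where Akr1c21 was lowest. The means of Akr1c18 and Akr1c14 were lowest in Vhl mutants, but there the arrays of both genes overlapped those of wild types. Each promoter shown is the 250 bases before the start, with matches to searched motifs in capitals.
Akr1c18, chr13:4150647-4150896, minus strand: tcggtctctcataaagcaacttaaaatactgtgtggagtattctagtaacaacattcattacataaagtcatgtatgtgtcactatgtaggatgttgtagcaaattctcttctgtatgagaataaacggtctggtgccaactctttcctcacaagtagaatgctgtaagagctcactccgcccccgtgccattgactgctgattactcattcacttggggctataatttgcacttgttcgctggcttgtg
Akr1c14, chr13:4059341-4059590, plus strand: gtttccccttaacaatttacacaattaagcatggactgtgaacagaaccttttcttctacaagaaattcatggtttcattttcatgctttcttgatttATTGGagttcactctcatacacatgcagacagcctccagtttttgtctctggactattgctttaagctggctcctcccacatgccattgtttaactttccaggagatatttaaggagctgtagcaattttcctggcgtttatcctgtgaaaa
Akr1c21, chr13:4573825-4574074, plus strand: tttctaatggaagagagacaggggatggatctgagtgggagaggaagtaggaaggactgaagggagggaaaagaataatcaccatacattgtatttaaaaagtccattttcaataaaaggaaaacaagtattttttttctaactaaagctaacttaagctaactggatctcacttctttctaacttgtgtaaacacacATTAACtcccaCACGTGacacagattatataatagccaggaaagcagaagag
The windows, from RefSeq and present for 7 of the 8 genes (none for Akr1c20), were searched on both strands for 6 motifs. The TATA box, spelled TATAAA, occurred in 12.4% of 32851 windows of the same length. The CCAAT box occurred in 33.8%, the HNF1 half-site GTTAAT in 6.4%, and the hypoxia response core, spelled either ACGTG or else GCGTG, in 38.6%. The steroid receptor half-site TGTTCT occurred in 16.1% and the antioxidant response element TGACNNNGC in 10.2%. In Akr1c18 none of these letters occurred. Akr1c14 held a CCAAT box on the minus strand, 152 to 148 bases before the start. Akr1c21 held an HNF1 half-site on the minus strand, 52 to 47 bases before the start, and the hypoxia response core on both strands of one palindrome, 41 to 37 and 40 to 36 bases before it, where the matches overlap. Akr1c18 and Akr1c14 were identical at 139 of 233 aligned bases (59.7%), Akr1c18 and Akr1c21 at 122 of 235 (51.9%). A match describes letters and is not evidence of binding.

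Akr1c12 and Akr1c13 share a probe set, and their promoters are nearly the same, with 235 of 246 aligned bases identical (95.5%). The 120 aligned bases nearest the start are shown because they make this visible, with the 7 differing bases in capitals.
Akr1c12, chr13:4279400-4279519, minus strand: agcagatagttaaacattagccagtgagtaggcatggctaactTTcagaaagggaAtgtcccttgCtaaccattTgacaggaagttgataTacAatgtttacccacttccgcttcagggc
Akr1c13, chr13:4191064-4191183, plus strand: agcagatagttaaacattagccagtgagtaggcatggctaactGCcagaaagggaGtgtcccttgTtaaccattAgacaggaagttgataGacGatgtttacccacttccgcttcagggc

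Akr1c18 was high in Pbrm1 mutants and in no other group. Its log2 levels in replicates 1 to 4 were 10.17, 10.29, 10.50 and 10.69 in Pbrm1 mutants, against 7.72, 8.01, 8.40 and 8.39 in wild types. Vhl mutants gave 8.0, 7.60, 8.17 and 8.06, and double mutants 7.33, 7.39, 8.86 and 9.01. Every Pbrm1 mutant array lay above all 12 other arrays. Group means were 8.13 ± 0.33 (SD, n = 4) in wild types, 7.96 ± 0.25 for Vhl mutants, 10.41 ± 0.23 for Pbrm1 mutants and 8.15 ± 0.91 for double mutants. Pbrm1 mutants stood 2.28 above wild types on the log2 scale (4.86-fold) and 2.45 above Vhl mutants (5.47-fold), and double mutants minus Pbrm1 mutants gave -2.23 (4.69-fold lower). The other 3 groups overlapped, so their order does not exceed their spread.

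The double mutants did not form 1 level for Akr1c18. Replicates 1 and 2 (7.33 and 7.39) lay below every wild-type and Vhl mutant array, and replicates 3 and 4 (8.86 and 9.01) above every one of them. Replicate 3 carries the number of replicates 1 and 2 but here sat beside replicate 4. In wild types too, replicates 3 and 4 exceeded replicates 1 and 2, by 0.53. The gap between Pbrm1 mutants and wild types lay between 2.02 and 2.55 when any wild-type or Pbrm1 mutant array or number was left out. No other arrays enter this gap.

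Tubule markers moved in Pbrm1 mutants as well, by smaller amounts. Of 10 proximal tubule markers 2 rose against wild type, where 4.04% of all genes were called in either direction, among them the organic anion transporter gene Slc22a8, by 0.28 (limma adjusted p = 0.006). That call was missed with arrays averaged per number (adjusted p = 0.095), without wild-type replicates 3 and 4 (0.075) and without Pbrm1 mutant replicates 3 and 4 (0.097). The proximal markers' summed log2 level was 118.12 to 118.60 in Pbrm1 mutants and 117.63 to 117.95 in wild types. Of 8 distal nephron markers 2 fell, among them Slc12a3, the thiazide-sensitive salt transporter, by 0.35 (adjusted p = 0.00073, and 0.057 with arrays averaged per number). Their summed log2 level was 81.30 to 82.21 in Pbrm1 mutants and 82.85 to 83.67 in wild types. The part of these markers in the Akr1c18 level was not tested.

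**Figure D1:**
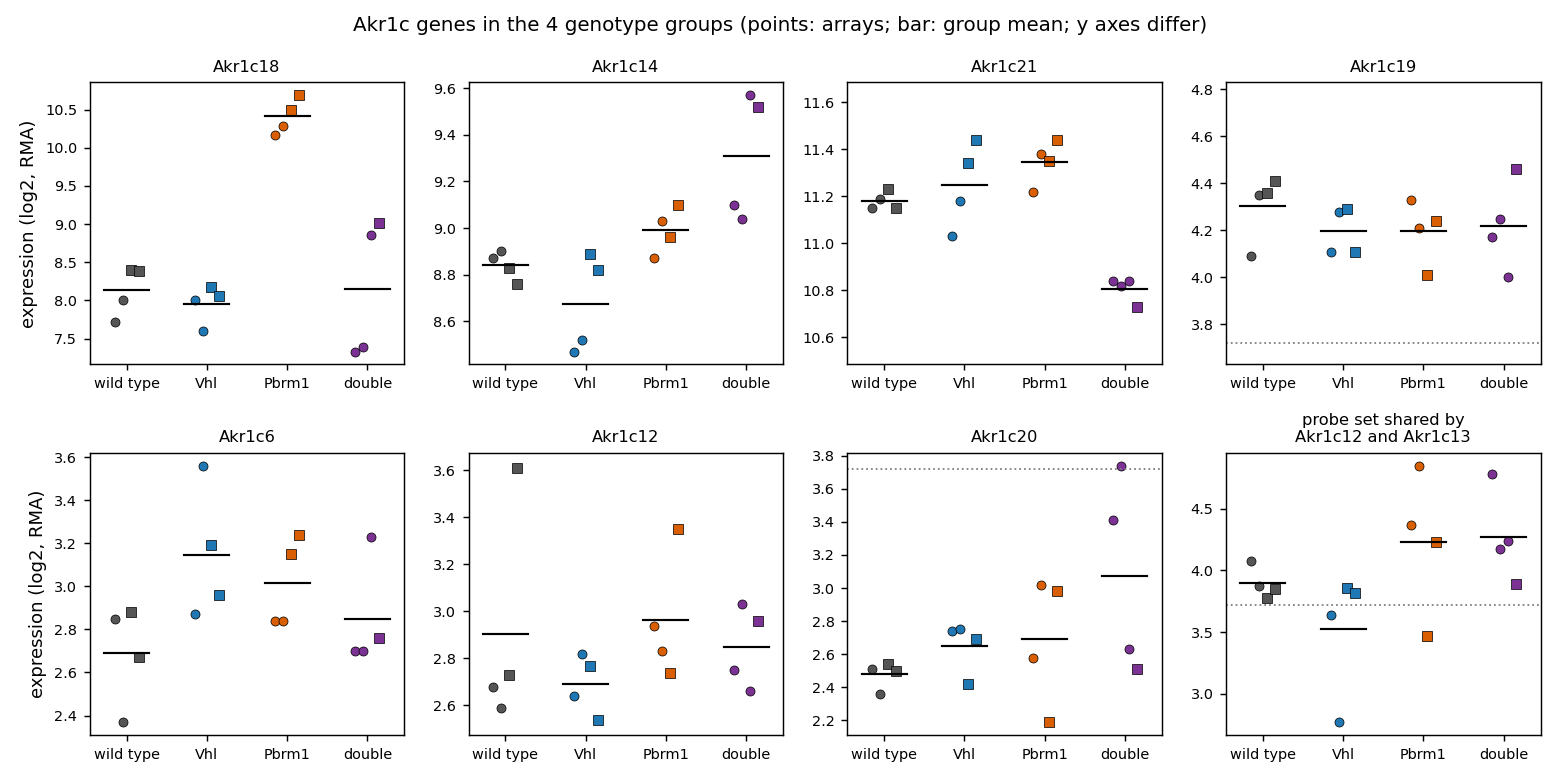
Log2 expression of 7 Akr1c genes and of the probe set shared by Akr1c12 and Akr1c13, by genotype. Points are arrays, circles and squares the 2 description numbers of a group, bars group means and the dotted line the background of 3.72. Pbrm1 mutants stand apart for Akr1c18 (10.17 to 10.69) and double mutants for Akr1c21 (10.73 to 10.84).

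Among the 6 members tested, 2 changed: Akr1c14 rose and Akr1c21 fell in double mutants. Against wild type, these 2 of 6 were called at an adjusted p under 0.05, where 12.2% of all genes were. Against Vhl mutants the same pair was called (background 6.35%). Against Pbrm1 mutants 1 of 6 was called, Akr1c21 (background 10.2%). The interaction, which is the double mutant mean minus both single mutant means plus the wild-type mean, called 1 of 6, again Akr1c21 (background 2.63%). The wild types alone differ in strain and lack Cre, so a shift from strain or Cre stays in the interaction too and cannot be told apart from the deletions. In Vhl mutants against wild type 0 of 6 were called by limma (background 3.84%), in Pbrm1 mutants against wild type 0 (4.04%) and in Pbrm1 against Vhl mutants 0 (7.47%). In each of these 3 comparisons 1 of the 6 had an unadjusted p under 0.05. The median difference of the 6 was 0.0519 for double mutants against wild type and 0.16 for Pbrm1 mutants, where the medians of all genes were -0.0209 and -0.0052. Of the 6, Akr1c6, Akr1c12 and Akr1c20 had every group mean below background, so these counts and medians rest in part on genes without clear signal.

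Akr1c14, the 3-alpha-hydroxysteroid dehydrogenase, read 9.10, 9.04, 9.57 and 9.52 in double mutants and 8.87, 8.90, 8.83 and 8.76 in wild types. Vhl mutants gave 8.47, 8.52, 8.89 and 8.82, and Pbrm1 mutants 8.87, 9.03, 8.96 and 9.10. Every double mutant array was above every wild-type and Vhl mutant array, while Pbrm1 mutants overlapped the lower end of the double mutants. Double mutants exceeded wild types by 0.48 ± 0.12 (SE, 1.39-fold, limma adjusted p = 0.0086) and Vhl mutants by 0.64 ± 0.12 (1.56-fold, adjusted p = 0.0014). The difference from Pbrm1 mutants was 0.32, with a 95% interval from 0.08 to 0.57, and did not pass (adjusted p = 0.088). Without wild-type replicates 3 and 4, the rise over wild type was 0.43 and no longer passed (adjusted p = 0.085).

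The double mutant values of Akr1c14 split as those of Akr1c18 did, with replicates 3 and 4 above replicates 1 and 2. Vhl mutants split by number as well, replicates 3 and 4 (8.89 and 8.82) lying within the wild-type range and replicates 1 and 2 (8.47 and 8.52) below it. The difference between Vhl mutants and wild types was -0.16, with an interval from -0.41 to 0.08. The interaction for Akr1c14 was 0.49 ± 0.16 and did not pass (adjusted p = 0.12).

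Akr1c21, the kidney-abundant 3(17)-alpha-hydroxysteroid dehydrogenase, was lower in double mutants than in each of the other groups. Its levels there were 10.84, 10.82, 10.84 and 10.73, against 11.15, 11.19, 11.23 and 11.15 in wild types. Vhl mutants gave 11.03, 11.18, 11.34 and 11.44, and Pbrm1 mutants 11.22, 11.38, 11.35 and 11.44. All 4 double mutant arrays lay below the other 12. The log2 change in double mutants was -0.37 ± 0.07 against wild types (SE, 1.29-fold lower, limma adjusted p = 0.0012). It was -0.44 against Vhl mutants (adjusted p = 0.00048) and -0.54 against Pbrm1 mutants (1.45-fold, adjusted p = 2.3e-05).

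Neither single mutant showed such a fall of Akr1c21. The change against wild type was 0.07 in Vhl mutants (interval -0.08 to 0.21) and 0.17 in Pbrm1 mutants (0.02 to 0.31), which did not pass after adjustment (adjusted p = 0.71 and 0.23). The interaction was -0.61 ± 0.10 (adjusted p = 0.002), and with arrays averaged per number it was -0.63 and missed the threshold (adjusted p = 0.064). Beside the fall of Akr1c21 in double mutants, 2 of 10 proximal tubule markers fell and 1 rose against wild type (background 12.2%). Slc5a2, the glucose transporter of the early proximal tubule, read 10.38 to 10.53 in double mutants and 11.13 to 11.32 in wild types and fell by 0.75 (adjusted p = 8.8e-08), while the lactate transporter gene Slc5a12 rose by 0.42 (adjusted p = 0.00046). The proximal markers summed to 116.53 to 117.57 in double mutants and 117.63 to 117.95 in wild types. Of 8 distal nephron markers 5 fell and 1 rose, with sums of 80.01 to 80.21 against 82.85 to 83.67. The part of these markers in the Akr1c21 level was not tested. In double mutants against Pbrm1 mutants, Akr1c18 and Akr1c21 were both lower while Akr1c14 read 0.32 higher. Over the 16 arrays, which share their 4 groups, Pearson's r was 0.454 between Akr1c18 and Akr1c21, 0.284 between Akr1c18 and Akr1c14 and -0.456 between Akr1c14 and Akr1c21.

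**Figure D2:**
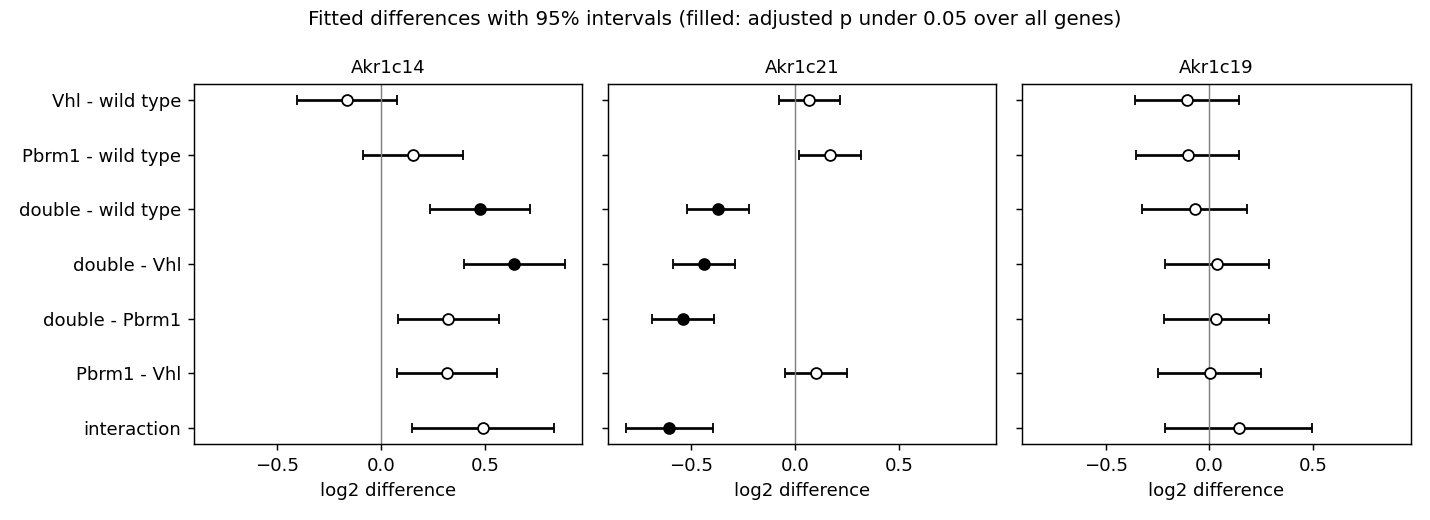
Fitted log2 differences of Akr1c14, Akr1c21 and Akr1c19 in the 7 comparisons, with 95% intervals. Filled points passed an adjusted p of 0.05 over all genes: 2 for Akr1c14, 4 for Akr1c21 and 0 for Akr1c19.

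Akr1c19 was measured above background but low, between 4.0 and 4.46 in all arrays, and no comparison called it. Its group means were 4.30 ± 0.14 in wild types, 4.20 ± 0.10 for Vhl mutants, 4.20 ± 0.13 for Pbrm1 mutants and 4.22 ± 0.19 for double mutants. The interval for Pbrm1 mutants against wild types ran from -0.35 to 0.14.

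The liver-type members were at background. Akr1c6 read 2.37 to 3.56 over the 16 arrays and Akr1c12 read 2.54 to 3.61, with group means below 3.72 throughout, so no fold is given. Akr1c20 read 2.36 to 2.54 in wild types, 2.42 to 2.75 in Vhl mutants and 2.19 to 3.02 in Pbrm1 mutants. In double mutants Akr1c20 gave 3.41, 3.74, 2.63 and 2.51, so replicates 1 and 2 were above all other arrays, though only 1 reached above the background level. The probe set shared by Akr1c12 and Akr1c13 read 2.77 to 4.85 with overlapping groups, whose means were 3.89 in wild types, 3.52 for Vhl mutants, 4.23 for Pbrm1 mutants and 4.27 for double mutants, and it can be assigned to neither gene.

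Beyond the cluster, no neighbour had the pattern of Akr1c18, and 1 lost most of its signal in a pair of Pbrm1 mutant arrays. On the Akr1c14 side lie Ucn3, Tubal3, Net1 and Calm5, and on the Akr1c21 side Akr1e1, Klf6, Pitrm1 and Pfkp. Akr1e1, an aldo-keto reductase of another subfamily that lies next to Akr1c21, read 7.73, 7.82, 4.61 and 4.82 in Pbrm1 mutants and 7.46 to 7.80 in the other 12 arrays. Replicates 3 and 4 of the Pbrm1 mutants were thus far below every other array, and replicates 1 and 2 were not. Between the 2 numbers of that group Akr1e1 differed by -3.06, the largest of 22180 genes, of which 25 differed by over 1. Akr1c18 was high in both numbers (10.17 and 10.29, 10.50 and 10.69). Akr1c21, the next gene, differed by 0.10 between them.

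Pfkp, a phosphofructokinase of glycolysis, rose in Vhl mutants from 7.80 ± 0.13 to 9.01 ± 0.09, by 1.21 (adjusted p = 1.3e-08), and in double mutants by 1.74 (adjusted p = 8.1e-12). Klf6, a zinc-finger transcription factor, rose in double mutants by 0.50 over wild types (adjusted p = 0.0097) and by 0.74 over Pbrm1 mutants (adjusted p = 0.00034). The rise of Klf6 over wild types missed the threshold without wild-type replicates 1 and 2 (adjusted p = 0.058), without wild-type replicates 3 and 4 (0.06) and without double mutant replicates 1 to 3 (0.19). In Pbrm1 mutants against wild type, 0 of the 8 neighbours were called by limma, where 4.04% of all genes were, and 3 had an unadjusted p under 0.05.

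**Figure D3:**
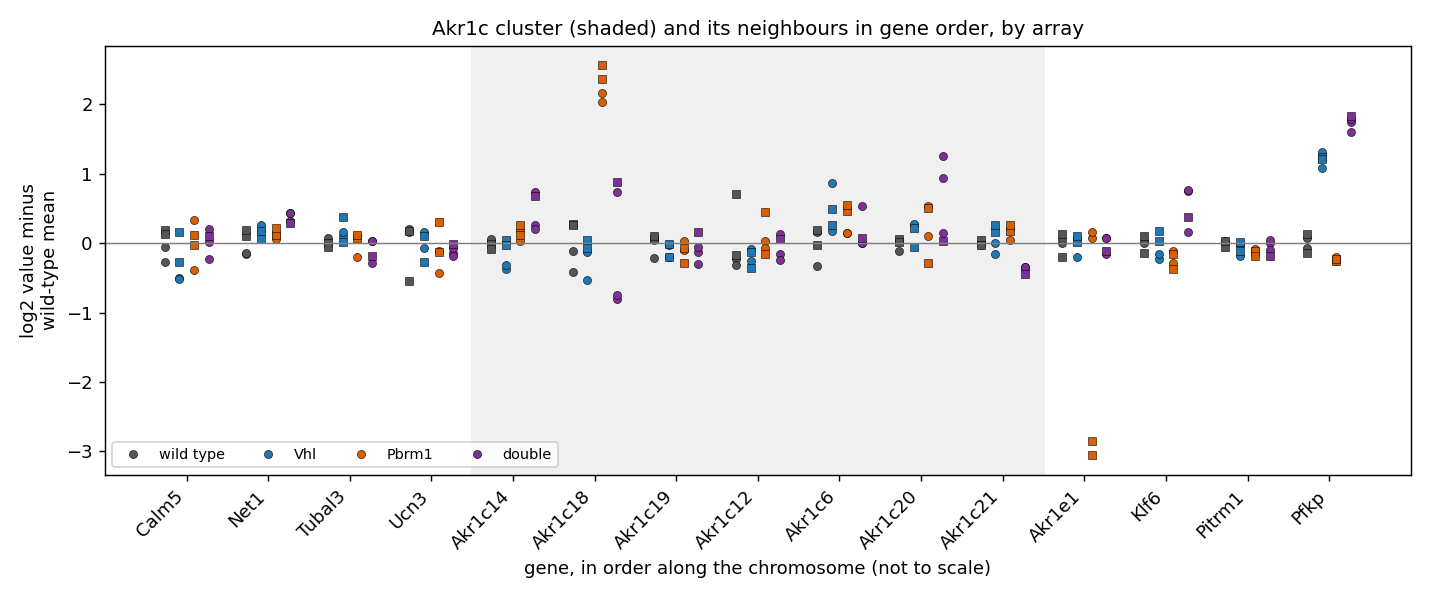
Each array's log2 value minus the wild-type mean, for the 7 measured Akr1c genes (shaded) and 4 neighbours on each side, in chromosomal order. Circles and squares are the 2 description numbers of a group. Pbrm1 mutants stand out at Akr1c18, and 2 of their arrays at Akr1e1.

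The genes most like Akr1c18 over the 16 arrays, out of 22173, were Tmem242 (Pearson r = 0.93), Ugt2a3 (0.926), Kap (0.902), Csta2 (0.899), Eddm3b (0.887) and Hsd17b13 (0.877). Ugt2a3 is a glucuronosyltransferase, Kap the androgen-regulated protein of proximal tubule, Csta2 a cystatin-type protease inhibitor and Hsd17b13 a lipid-droplet member of the 17-beta-hydroxysteroid dehydrogenase family. These r values are descriptions: the arrays share 4 groups, and the 4 Pbrm1 mutant arrays stand apart in each plot. Over the other 12 arrays r was 0.551, 0.527, 0.508, 0.733, 0.647 and 0.312 in the same order. These 12 arrays also took part in the ranking, so their r is in part a product of that choice.

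Ugt2a3 read 5.61, 5.24, 5.33 and 5.53 in Pbrm1 mutants and 3.10 to 4.38 elsewhere. Eddm3b read 6.12, 6.45, 6.15 and 6.12 in Pbrm1 mutants and 3.77, 4.15, 5.79 and 5.65 in double mutants. Eddm3b thus had the same split of the double mutants as Akr1c18, with replicates 3 and 4 high, though these arrays were among those it was ranked on. Csta2 read 4.17 to 5.52 in Pbrm1 mutants, and 3.25, 2.85, 3.94 and 3.85 in double mutants. Hsd17b13 moved near background, 3.83 to 4.01 in Pbrm1 mutants against 3.38 to 3.68 in the other arrays. The means of Ugt2a3 were also below background in wild types (3.56) and Vhl mutants (3.18). Those of Csta2 were below it in wild types (3.20), Vhl mutants (2.92) and double mutants (3.47).

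**Figure D4:**
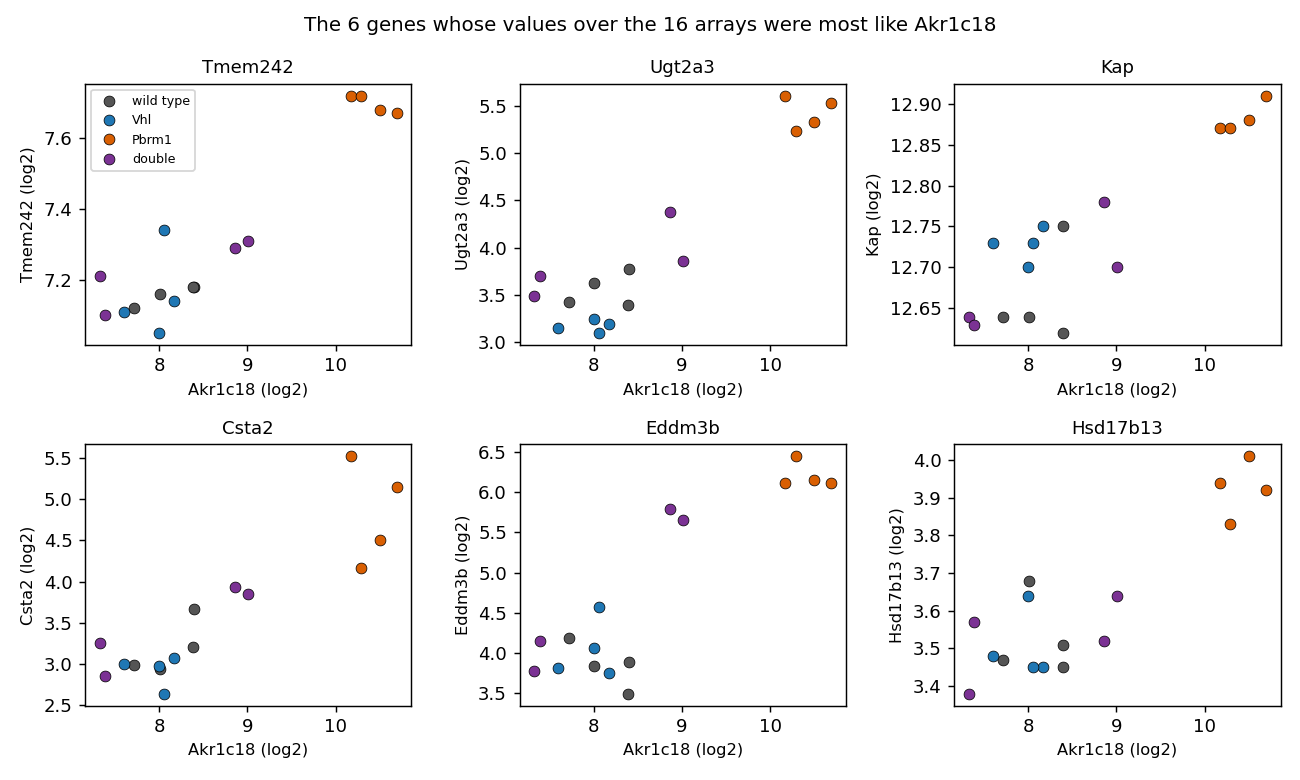
Log2 levels of the 6 genes most like Akr1c18 against Akr1c18, with 1 point per array coloured by genotype. The Pbrm1 mutant points lie apart at the upper right in each panel, with Akr1c18 at 10.17 to 10.69.

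Of the hydroxysteroid dehydrogenases outside the Akr1c family, 22 of a list of 24 were measured. In Pbrm1 mutants against wild type 3 rose, 2 fell and 17 did not pass, where 4.04% of all genes were called. Among the 3 that rose, Hsd17b13 was picked for its likeness to Akr1c18, so its rise was part of that choice. Its wild-type mean (3.53) was below background. The median difference of the list was 0.0544 against -0.0052 for all genes. In double mutants 3 rose and 4 fell (background 12.2%), and in Vhl mutants 0 rose and 5 fell (background 3.84%). In both groups with floxed Pbrm1, genes of this list were thus called in either direction.

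Hsd3b2, a 3-beta-hydroxysteroid dehydrogenase, rose in Pbrm1 mutants from 9.67 to 9.94 in wild types to between 10.48 and 10.60, by 0.70 ± 0.08 (1.62-fold, adjusted p = 8e-06). In double mutants its rise was 0.43 (adjusted p = 0.00056), and in double mutants without replicates 1 to 3 it was 0.26 and did not pass (adjusted p = 0.25). Hsd3b3, of the same subfamily, fell in double mutants by 1.70 ± 0.23, from 6.85 to 7.43 in wild types to between 5.0 and 6.0 (3.26-fold, adjusted p = 2.6e-05). In Pbrm1 mutants Hsd3b3 fell by 1.26 (adjusted p = 0.0023), a call that was missed without wild-type replicates 1 and 2 (0.073) and without Pbrm1 mutant replicates 3 and 4 (0.052).

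The glucocorticoid-activating and -inactivating enzymes both fell in Vhl mutants and in double mutants. Hsd11b1, which regenerates active glucocorticoid, fell in Pbrm1 mutants by 0.85 (adjusted p = 2.6e-05), in double mutants by 0.83 (1e-05) and in Vhl mutants by 0.61 (0.0013). The Vhl mutant call was missed without wild-type replicates 1 and 2 (0.058). Hsd11b2, which inactivates glucocorticoid in the distal nephron, read 9.26 to 9.43 in wild types, 8.75 to 9.14 in Vhl mutants, 9.37 to 9.53 in Pbrm1 mutants and 8.40 to 8.61 in double mutants. It fell in double mutants by 0.90 against wild type (adjusted p = 2e-07) and by 0.997 against Pbrm1 mutants (4.7e-08), and in Vhl mutants by 0.41 against wild type (adjusted p = 0.0059). The Vhl mutant call for Hsd11b2 was missed with arrays averaged per number (0.11), without wild-type replicates 3 and 4 (0.064) and without Vhl mutant replicates 3 and 4 (0.11). Beside these falls, 5 of 8 distal nephron markers fell and 1 rose in double mutants (background 12.2%), and 3 fell in Vhl mutants (background 3.84%). Their summed log2 level was 80.01 to 80.21 in double mutants, 80.99 to 82.50 in Vhl mutants and 82.85 to 83.67 in wild types, and their part in the falls was not tested.

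Hsd17b11, a 17-beta-type enzyme of lipid droplets, had the pattern of Akr1c18 in part. It read 10.66, 10.76, 10.89 and 10.80 in Pbrm1 mutants, above all 12 other arrays, which read 9.62 to 10.26. It exceeded wild types by 0.64 ± 0.12 (adjusted p = 0.0023) and in double against Pbrm1 mutants its change was -0.93 (adjusted p = 1.2e-05). Without Pbrm1 mutant replicates 3 and 4 the excess over wild type missed the threshold (adjusted p = 0.064). Hsd17b2, which oxidises oestradiol and testosterone, rose in double mutants by 0.42 over wild type (adjusted p = 0.015). That call was missed with arrays averaged per number (limma adjusted p = 0.11), without wild-type replicate 1 (0.06) and without wild-type replicates 1 and 2 (0.16). The rise was 0.40, 0.35 and 0.33 in the same order, and 0.36 without double mutant replicates 1 to 3.

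**Figure D5:**
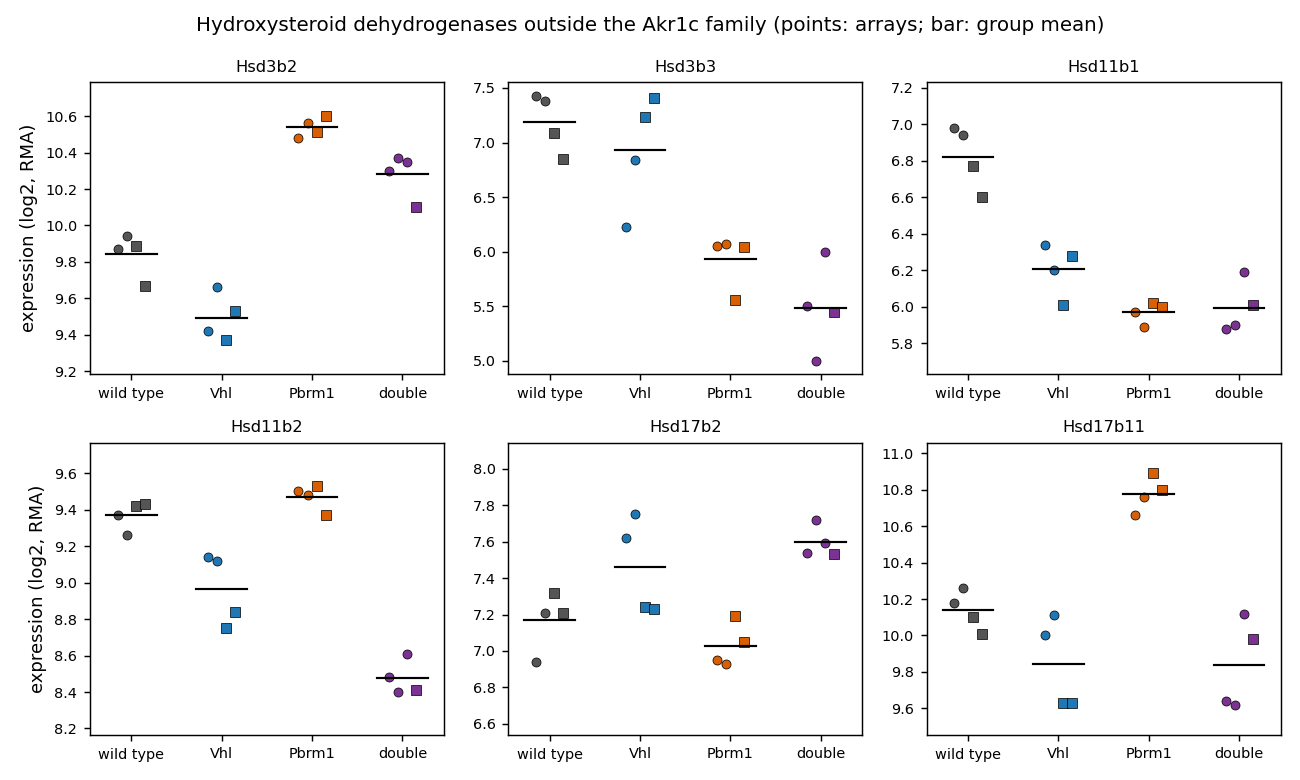
Log2 expression of 6 hydroxysteroid dehydrogenases outside the Akr1c family, by genotype. Points are arrays, circles and squares the 2 description numbers of a group, and bars group means. Hsd3b2 and Hsd17b11 are highest in Pbrm1 mutants, and Hsd11b2 is lowest in double mutants.

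Of 7 other aldo-keto reductases measured, 0 were called against wild type by limma in Vhl mutants (1 at an unadjusted p under 0.05, background 3.84%) or in Pbrm1 mutants (1, background 4.04%), and 2 fell in double mutants (background 12.2%). The aldehyde reductase genes Akr7a5 and Akr1a1 fell there by 0.44 (adjusted p = 0.0023) and 0.22 (0.014). The Akr1a1 call was missed with arrays averaged per number (0.061), without double mutant replicate 4 (0.063), without double mutant replicates 1 to 3 (0.071) and without wild-type replicates 3 and 4 (0.16).

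Of 11 steroid-reducing, hydroxylating and conjugating genes, 2 rose and 1 fell in double mutants (background 12.2%), 1 rose in Vhl mutants (3.84%) and 1 in Pbrm1 mutants (4.04%). Cyp7b1, an oxysterol and steroid hydroxylase, read 10.17, 10.16, 10.87 and 10.93 in double mutants and 9.70 to 10.09 in wild types, a rise of 0.59 (adjusted p = 0.011). Its double mutant replicates 3 and 4 thus lay above replicates 1 and 2, as for Akr1c18 and Akr1c14, and the call was missed without replicate 4 (0.065) and without wild-type replicates 1 and 2 (0.13). The glucuronosyltransferase gene Ugt2b34 fell in double mutants from 7.83 to 7.96 in wild types to between 7.43 and 7.60, by 0.37 (adjusted p = 0.0035), a call missed with arrays averaged per number (0.071) and without double mutant replicates 1 to 3 (0.22). Ugt2b37, of the same family, rose in Pbrm1 mutants by 0.65 (adjusted p = 0.0096), in Vhl mutants by 1.05 (0.00014) and in double mutants by 0.995 (4.7e-05). The Pbrm1 mutant call for Ugt2b37 was missed with arrays averaged per number (0.073), without either pair of wild-type arrays (0.054 and 0.088) and without Pbrm1 mutant replicates 3 and 4 (0.17).

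Of 15 prostaglandin genes measured, which belong here because the human homologues include a prostaglandin F synthase, 0 were called in Pbrm1 mutants by limma (1 at an unadjusted p under 0.05, background 4.04%). In Vhl mutants 2 rose, Hpgds and Cbr1 (background 3.84%), and in double mutants 4 rose and 1 fell (background 12.2%). Ptger4, a prostaglandin E2 receptor, rose there from 5.07 to 5.18 in wild types to between 5.65 and 5.87, by 0.67 (adjusted p = 0.00018). Slco2a1, the prostaglandin transporter, rose by 0.55 (0.0022), a call missed without wild-type replicates 1 and 2 (0.057).

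Of 8 steroid receptor genes measured, 0 were called in Pbrm1 mutants by limma (0 at an unadjusted p under 0.05, background 4.04%). The progesterone receptor gene Pgr, whose ligand Akr1c18 removes, read 3.71 to 4.18 in all arrays. In Vhl mutants and in double mutants 1 of 8 was called (background 3.84% and 12.2%), Nr3c2, the mineralocorticoid receptor gene, which fell by 0.36 (adjusted p = 0.025) and by 0.29 (0.035). Both Nr3c2 calls were missed with the mean of the gene's probe sets (0.26 and 0.22), with arrays averaged per number (0.12 and 0.092), without wild-type replicate 2 (0.09 and 0.11) and without wild-type replicate 3 (0.061 and 0.087).

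Genes known to be higher in male kidney were checked because Kap, among the genes most like Akr1c18, is one. Of 7 measured, 3 rose in Pbrm1 mutants, Kap, Cyp4a12a and Cyp2e1. Kap was picked for its likeness to Akr1c18, so its rise there was part of that choice. Of the other 6, 2 rose in Pbrm1 mutants (background 4.04%), 3 fell in Vhl mutants (3.84%), and 1 rose and 1 fell in double mutants (12.2%). Cyp4a12a, an androgen-dependent fatty acid hydroxylase, read 7.63 to 7.91 in Pbrm1 mutants, 5.94 to 6.85 in wild types, 3.34 to 5.0 in Vhl mutants and 6.92 to 7.53 in double mutants, a rise of 1.28 in Pbrm1 mutants (adjusted p = 0.0066). That call was missed without wild-type replicates 3 and 4 (0.094) and without Pbrm1 mutant replicates 3 and 4 (0.098). Cyp2e1, a drug-metabolising cytochrome, rose by 0.18 (adjusted p = 0.035), a call missed with quantile normalization (difference 0.076, adjusted p = 0.38) and without any of wild-type replicates 2 and 4 or Pbrm1 mutant replicates 1, 3 and 4 (0.065 to 0.11). With Kap included, the list's summed log2 level was 76.15 to 77.08 in Pbrm1 mutants and 73.41 to 74.71 in wild types. The sum was 69.64 to 71.49 in Vhl mutants and 74.29 to 76.62 in double mutants. Kap alone read 12.87 to 12.91 in Pbrm1 mutants and 12.62 to 12.75 in wild types. Its range was 12.70 to 12.75 in Vhl mutants and 12.63 to 12.78 in double mutants. Of 3 genes known to be higher in female kidney that were measured, 1 had a mean over all arrays below background. Against wild type 1 of the 3 fell in Pbrm1 mutants (background 4.04%), 1 rose in Vhl mutants (3.84%) and 1 rose in double mutants (12.2%). The part of the male-high and female-high genes in the Akr1c18 level was not tested.

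Adrenal and ovary, where Akr1c18 is also made, were checked by their markers. Of 11 adrenal cortex markers 0 were called in Pbrm1 mutants by limma (0 at an unadjusted p under 0.05), where 4.04% of all genes were called. Of the 11, 5 had a mean over the 16 arrays below background. The adrenal steroid hydroxylase genes Cyp11b1 (3.00 to 3.60) and Cyp21a1 (2.90 to 3.37) were below background in every array, and Cyp11a1 (3.84 to 4.30) just above it. Cyp11b2, another of these hydroxylase genes, read 3.27 to 4.02 in wild types, 3.53 to 4.06 in Vhl mutants and 3.54 to 3.85 in Pbrm1 mutants. Double mutants gave 3.36 to 3.62. Some arrays were thus above background for Cyp11b2, though every group mean was below it. Other genes of the list were clearly above it in every array: Star read 5.12 to 5.90, Fdx1 6.79 to 7.60 and Pik3c2g 7.16 to 8.32. Pik3c2g rose in Vhl mutants by 0.77 (adjusted p = 0.00014) and Fdx1 fell in double mutants by 0.45 (0.0031), the latter a call missed without wild-type replicates 1 and 2 (0.099) and without double mutant replicates 1 to 3 (0.073). The adrenal list sums were 48.64 to 50.24 in Pbrm1 mutants and 48.59 to 48.87 in wild types. Of 5 ovary markers 0 were called in Pbrm1 mutants by limma (0 at an unadjusted p under 0.05), against 4.04% of all genes. Their sums were 21.37 to 21.60 in Pbrm1 mutants and 21.09 to 21.73 in wild types. Inha, an inhibin subunit gene of that list, rose in Vhl mutants by 0.46 (adjusted p = 0.017) and in double mutants by 0.34 (0.041), and both calls were missed with arrays averaged per number (0.14 and 0.12), without wild-type replicate 1 (0.051 and 0.091) and without wild-type replicate 2 (0.051 and 0.092). Adipose markers summed to 28.28 to 37.27 in Pbrm1 mutants and 28.41 to 30.93 in wild types. Without the 3 arrays highest for them, 1 per mutant group, Pbrm1 mutants stood 2.25 above wild types for Akr1c18. Of these 3 arrays only Pbrm1 mutant replicate 3 enters that gap. The part of the adrenal, ovary and adipose markers in the Akr1c18 level was not tested.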

How the data were processed

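Kidney cortex RNA was labelled from total RNA extracted with Trizol and hybridised to Affymetrix arrays, per the labels' protocols. The deposited values are log2 expression that, per the submitters' processing notes, the authors made by RMA with version 1.4 of Affymetrix Expression Console, and no further scaling was applied. Of 41345 probe sets, 23521 had 1 gene symbol, and where a gene had several the one of highest mean over 16 arrays was used, leaving 22180 genes. The array's build is not named, so gene positions serve only for order.

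Group means were estimated in limma (version 3.58.1, R version 4.3.3) with the description number as a random block (correlation 0.0838) and a mean-dependent prior. P-values were Benjamini-Hochberg adjusted over all genes, and a gene was called under 0.05. The number may mark an animal, so that a group may hold 2 animals, and p-values then reflect in part the spread within an animal. With 4 arrays a group, precision is limited by their number. The fit was tested on simulated data. The design planned 7 members besides Akr1c18; only 6 have a probe set of their own. Members and gene lists were chosen with earlier results of these data known. Named genes were the members, list genes called (up to 4 per list and comparison by fold), the 6 most correlated with Akr1c18 and the 4 nearest neighbours on each side; Pgr and the uncalled adrenal markers were added after their values were seen. Python 3.11.15 and Biopython were used for tables, figures and promoter alignment.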

Additional observations from a re-analysis of the deposited data

Results flagged for a closer look

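In 160 groups of 4 arrays examined, 1 array lay far from the other 3 in 8, by a rule that chance meets in about 1 in 20 groups. Among the members these were Akr1c21 in double mutant replicate 4, at 10.73 where the others read 10.82 to 10.84, Akr1c6 in double mutant replicate 3 (3.23) and Akr1c12 in wild-type replicate 4 (3.61), the last 2 both below background. The others were Kap in wild-type replicate 3 (12.75), Eddm3b in Pbrm1 mutant replicate 2 (6.45), Hsd17b13 in Vhl mutant replicate 1 (3.64), Hsd3b3 in Pbrm1 mutant replicate 3 (5.56) and Inha in wild-type replicate 4 (5.27).

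Limma's interaction term, double mutants minus both single mutants plus wild types, was called for 583 of 22180 genes (2.63%). Since the wild types alone differ in strain and lack Cre, it is not a term of the deletions alone. The members, named list genes and neighbours above background that it called are given here, without the genes ranked on Akr1c18, which were chosen for their pattern. Akr1c21 had -0.61 (adjusted p = 0.002). Hsd11b1 had 0.64 (0.02), Hsd11b2 -0.59 (0.0077), Hsd17b11 -0.64 (0.043), Ugt2b34 -0.53 (0.013) and Ptger4 0.59 (0.038). Cyp4a12a had 1.71 (0.016), Klf6 0.78 (0.018) and Pfkp 0.77 (0.00031). Among markers of other cells and of tubule segments, Pik3c2g had -0.70 (0.012) and Slc5a2 -0.39 (0.026). With arrays averaged per number the adjusted p was 0.12 for Hsd11b1, 0.11 for Hsd11b2, 0.19 for Hsd17b11, 0.18 for Ugt2b34, 0.15 for Ptger4, 0.067 for Klf6 and 0.15 for Slc5a2. Leaving out single arrays ended the calls of Hsd17b11 and Ptger4, for example without wild-type replicate 1 (0.065 and 0.056), and that of Slc5a2, for example without wild-type replicate 2 (0.06). Leaving out a number ended the calls of Cyp4a12a (for example 0.13 without wild-type replicates 1 and 2) and Pik3c2g (0.082 without double mutant replicates 1 to 3).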

How the results depend on the processing

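Akr1c18 in Pbrm1 mutants stood 2.02 to 2.55 above wild types in the 29 settings, the main one included, for which this gap was computed. It was not computed for the other settings, such as arrays averaged per number or array weights. The count of members called changed as follows, and the cause was not tested. The replicate block, which uses the replicate number, gave 2 for double against Pbrm1 mutants (1 with the number as a random block) and 1 for Pbrm1 against Vhl mutants (0 otherwise). The replicate numbers do not pair the samples: correlations of same-numbered arrays ran from -0.0744 to 0.059, and 0 of 16 arrays lay closest to their own number. With arrays averaged per number the interaction gave 0. Leaving out arrays gave 1 to 2 for double against Pbrm1 mutants (2 without double mutant replicate 1 or replicate 2, and without replicates 1 to 3), 1 for double mutants against wild type without wild-type replicates 3 and 4, 0 to 2 for Pbrm1 against Vhl mutants (1 without double mutant replicates 1 to 3, 2 without Vhl mutant replicates 3 and 4) and 2 for the interaction without either of those last 2 sets. Where leaving out a number left 1 double mutant array, it was assumed to vary like the other groups.

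Signs turned only for differences that were not called. Akr1c14 in Vhl mutants against wild type was 0.018 without Vhl mutant replicates 1 and 2, Akr1c21 in Pbrm1 against Vhl mutants -0.042 without the same arrays, and Akr1c21 in Vhl mutants against wild type -0.075 without Vhl mutant replicates 3 and 4. For Akr1c19, Pbrm1 against Vhl mutants was -0.014 with array weights, -0.041 to 0.063 over single arrays left out, -0.070 without Pbrm1 mutant replicates 1 and 2 and -0.0011 without Vhl mutant replicates 1 and 2. Double against Pbrm1 mutants was -0.00842 with arrays centred on their median, -0.055 to 0.10 over single arrays left out (-0.055 without double mutant replicate 4) and -0.038 without Pbrm1 mutant replicates 3 and 4. Double against Vhl mutants was -0.053 to 0.10 over single arrays left out (-0.053 without double mutant replicate 4). Double mutants against wild type were 0.16 without double mutant replicates 1 to 3 and 0.010 without wild-type replicates 3 and 4.

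Of 114 calls on list, neighbour and named marker genes, 46 were missed with arrays averaged per number, 40 without double mutant replicates 1 to 3 and 35 without Pbrm1 mutant replicates 3 and 4. Chosen after seeing the data were 2 alternatives: double mutant replicate 3 given the number of replicate 4, which kept all 6 member calls and missed 4 of the 114, and leaving out the 3 arrays highest in adipose markers, which kept all 6 and missed 23 of the 114.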
